A study of Rattus norvegicus with 2 samples.

Results

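This account concerns 10 rat genes that carry, export or take up lipoprotein lipid: the carriers Apoe, Clu, Apod and Apoc1, the transporters Abca1 and Abcg1, the lipase gene Lpl, and the receptor genes Lrp1, Vldlr and Lrp8. The set is given by name, and its genes were found by matching the RefSeq accession of each array probe to a rat gene symbol. Of the 10, 9 had a probe and were measured on both arrays, among 10852 named genes measured on the withdrawal array and 10241 on the array labelled Bcl-2. Lrp8 matched no probe and is not analysed here. Apoe was chosen because its ratio was the largest of the series, and the other genes because they are its partners in lipid transport in brain. The log2 ratios of Apoe are therefore a description, and the values of the others were chosen with earlier results of these arrays known.

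Neural precursor cells from the cortex of Sprague-Dawley (labelled SD) rat embryos at day 14 were grown in N2 medium with bFGF (10 ng/mL), the growth factor under which they divide. They were transfected transiently with 4 µg of MSCV-IRES-EGFP (the empty vector) or of the same plasmid carrying rat Bcl-2, which blocks the mitochondrial path of apoptosis. The withdrawal array set vector cells without bFGF, kept 2 days in NB medium (red channel, Cy5), against vector cells kept in N2 medium with bFGF (green channel, Cy3), so that medium and factor cannot be told apart. By its labels the other array set Bcl-2 cells with bFGF (red) against vector cells with bFGF (green). Each comparison has 1 array with no dye swap and no replicate, so no difference below has a test. The labels mention no sorting of transfected cells. RNA came from whole cultures, and a change in the share of cells of a type cannot be told apart from a change in RNA per cell.

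In brain, lipoprotein particles are made locally rather than taken from blood. Astrocytes and, in some states, microglia secrete apolipoprotein E. Abca1 and Abcg1 load such particles with cholesterol and phospholipid, and neurons and glia take them up through lipoprotein receptors. Nuclear receptors of the LXR group sense oxysterols and drive Abca1, Abcg1 and Apoe, while SREBP2 drives sterol synthesis when sterols are low.

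Values below are log2 ratios of red over green as labelled, after background correction and loess normalization. A gene is called 2-fold where its log2 ratio reached 1 or -1 and its measured probes shared a sign. Intensities are given after normalization across channels and include the offset of 50 added in background correction. They are compared within a probe, or as sums over the same probes of a marker list, in which the brightest probes weigh most. Median net signals were 284.5 and 266 in red and 189 and 201 in green, and 66.1% to 72% of spots per channel were well above background.

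Which way the ratios run is not settled by the signals. By label both arrays share their control and their dye orientation, yet the loess log2 ratios correlated at r = -0.67 over 42877 gene spots, and the Feature Extraction ratios at r = -0.12. Over the 26861 spots that were well above background in every channel, green on the array labelled Bcl-2 minus red on the withdrawal array had an SD of 0.14 (log2). Green minus green, labelled as the same control, had an SD of 0.40. The labels state the dyes, and values are printed in the labelled direction. The words with and without bFGF, used for the withdrawal array, also follow the labels alone. Which array, if either, departs from its labels was not tested. With the sign of an array turned, every higher gene of that array becomes lower, counts of higher and lower genes trade places and each median changes sign. The summaries of the 9 genes and of the main lists are given that way too. Each turned value stands for its own array, so that 1 array can be turned and the other kept.

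On the withdrawal array all 9 measured genes were above 0, and on the array labelled Bcl-2 all 9 were below 0. Over all genes, 54.2% were above 0 on the withdrawal array, and 51.8% were below 0 on the array labelled Bcl-2. The median log2 ratio of the 9 genes was 0.90 on the withdrawal array (all genes 0.03) and -0.79 on the array labelled Bcl-2 (all genes -0.01). Without Apoe the medians were 0.72 and -0.76. Apoe, Apoc1, Abca1 and Clu, 4 of the 9, were at least 2-fold higher without bFGF, a call that 2.42% of all measured genes met. Apoe, Apoc1, Abca1 and Apod, again 4, were at least 2-fold lower in the channel labelled Bcl-2, a call met by 2.00% of genes. Of 10162 genes measured on both arrays, 1.58% met both of these calls, as did Apoe, Apoc1 and Abca1. In either direction 2.89% of genes were called on the withdrawal array, and 2.56% on that labelled Bcl-2. With the sign turned, the medians become -0.90 and 0.79, with 4 genes lower on the withdrawal array and 4 higher on the other. Nearest to the 2-fold limit on the withdrawal array were Clu inside it at 1.10 and Abcg1 outside it at 0.90.

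**Figure D1:**
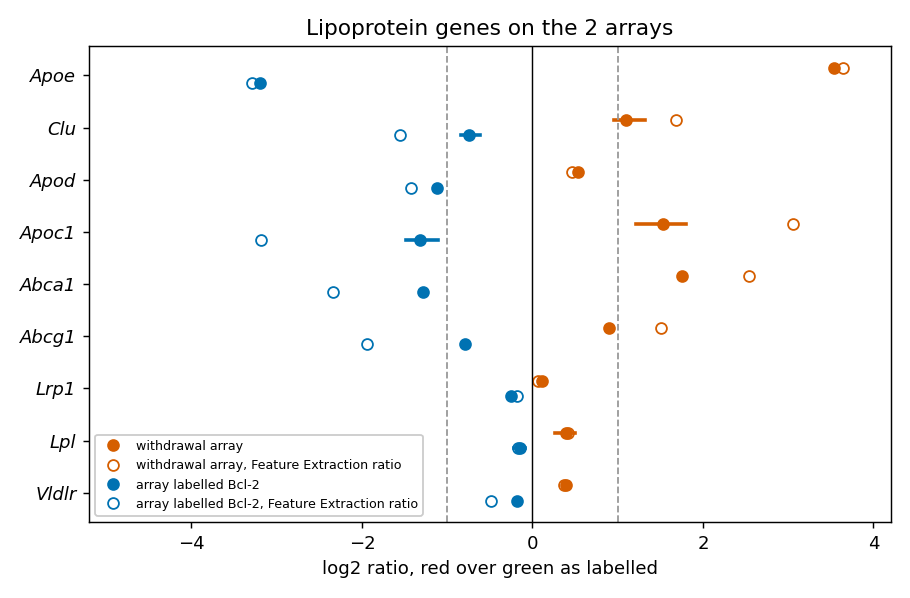
Log2 ratio of red over green (horizontal axis) for the 9 measured genes on the withdrawal array (orange) and the array labelled Bcl-2 (blue), with filled points for the loess ratio, open points for the Feature Extraction ratio, bars for the range over repeat spots of Clu, Apoc1 and Lpl, and dashed lines at the 2-fold limit. Apoe lies at 3.54 and -3.20, far outside the other genes, while Lrp1, Lpl and Vldlr stay within 0.40 of 0 by the loess ratio.

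Apoe encodes the main apolipoprotein of brain particles. On the withdrawal array its probe had a normalised intensity of 11200 in the channel labelled without bFGF and 966 in that labelled with bFGF. On the other array it had 1220 in the channel labelled Bcl-2 with bFGF and 11200 in the channel labelled vector with bFGF. The channels thus fall into a high and a low pair, and the channels labelled as the same control belong to different pairs. Apoe was 11.6-fold higher without bFGF (log2 3.54), the highest of 10852 genes, and 9.16-fold lower in the channel labelled Bcl-2 (log2 -3.20), the lowest of 10241 genes. With the signs of both arrays turned it would be the lowest gene at -3.54 and the highest at 3.20. With 1 array alone turned it would be at -3.54 and -3.20, or at 3.54 and 3.20. Apoe is read by 1 spot per array, as are Apod, Abca1, Abcg1, Lrp1 and Vldlr. The log ratio error of Apoe in the Feature Extraction output deposited by the authors was 0.40 and 0.37 on the log2 scale. That error is estimated within 1 array and covers no replicate cultures.

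**Figure D2:**
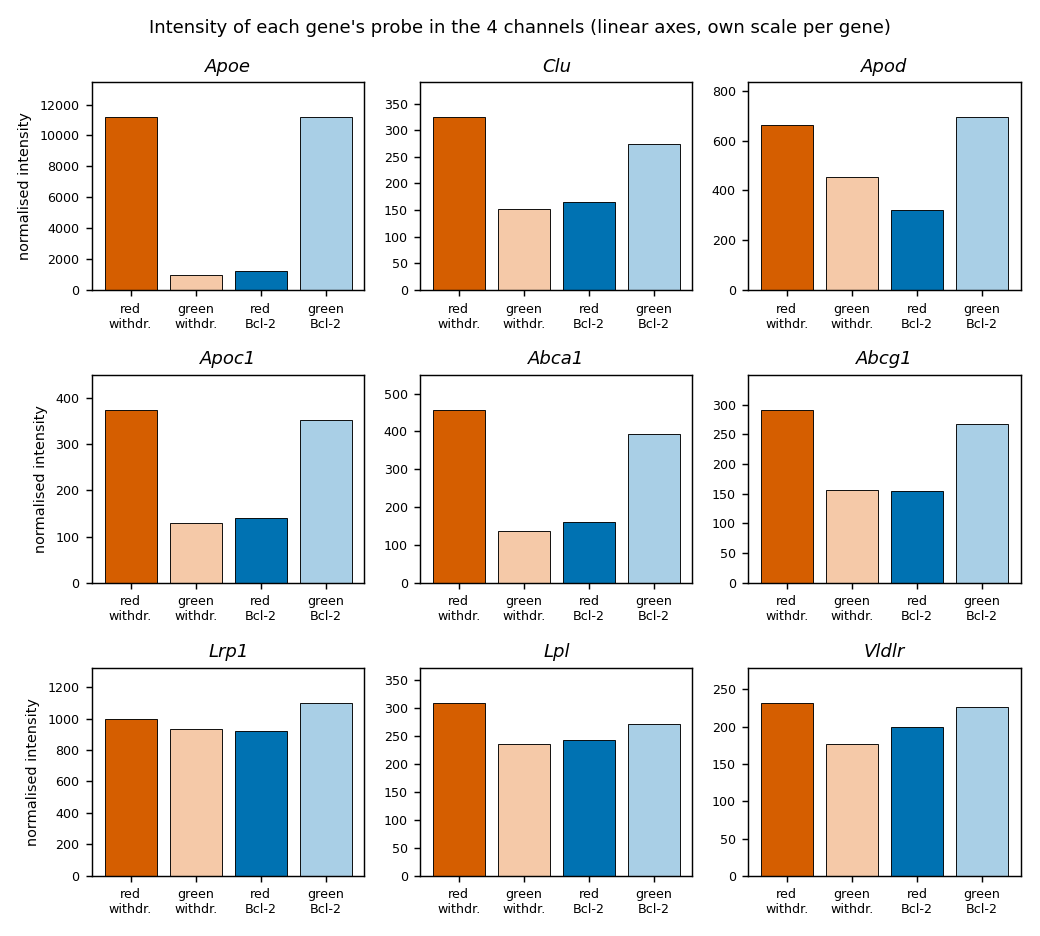
Normalised intensity (vertical axes, linear from 0, own scale per gene) of the 9 probes in the red and green channels of the withdrawal array (orange) and of the array labelled Bcl-2 (blue), means over spots on the log scale. For Apoe the red withdrawal and green Bcl-2 channels are both at 11200, against 966 and 1220 in the remaining channels.

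Apoc1, a small exchangeable apolipoprotein, lies next to Apoe on chromosome 1. Its 10 spots allow a measure of spot scatter within an array. On the withdrawal array its intensity was 377 ± 44.0 in the channel labelled without bFGF and 130 ± 6.65 in that labelled with bFGF (SD, n = 9 spots of 1 array). On the array labelled Bcl-2 it was 141 ± 5.81 in the channel labelled Bcl-2 and 354 ± 40.1 in the channel labelled vector (SD, n = 10 spots of 1 array). Red and green spots did not overlap on either array, with 300 to 428 against 121 to 141 on the withdrawal array, and 132 to 150 against 294 to 407 on the other. How many other probes printed several times also separate was not counted, here or for Clu and Lpl below. The log2 ratio was 1.53 ± 0.18 on the withdrawal array and -1.32 ± 0.12 on the array labelled Bcl-2 (SD over spots, a technical spread). The low channel was close to background, with 7 of 9 green spots and 7 of 10 red spots well above it. The Feature Extraction ratio, which adds no offset, gave 3.06 and -3.18.

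The neighbours of Apoe, chosen by their place in the RefSeq gene table, had other values. Apoc4, beyond Apoc1, was at 0.42 on the withdrawal array and -0.10 on the array labelled Bcl-2. Apoc2, beyond Apoc4, was not well above background on the withdrawal array and at -0.11 on the other. On the opposite side Tomm40, a mitochondrial import gene, was at -0.61 and 0.27, and the adhesion gene Nectin2 at 0.40 and -0.20. Further out, Clptm1 was at -0.02 and -0.15, and Cblc was measured on neither array. Bcam was at 0.42 on the withdrawal array, with a Feature Extraction ratio of 1.76, and was not measured on the other. By the loess ratio Apoe and Apoc1 were the genes of this stretch called at least 2-fold.

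Clu encodes clusterin, a secreted chaperone that also rides on brain lipoprotein particles. Its intensity was 325 ± 8.99 without bFGF and 152 ± 9.70 with bFGF on the withdrawal array (SD, n = 8 spots of 1 array), where spots ran from 308 to 336 and from 133 to 167. On the array labelled Bcl-2 it was 165 ± 7.21 in the channel labelled Bcl-2 and 276 ± 20.0 in the channel labelled vector (SD, n = 9 spots of 1 array), with spots from 154 to 177 and from 259 to 307. The log2 ratio of Clu was 1.10 ± 0.11 on the withdrawal array and -0.74 ± 0.08 on the array labelled Bcl-2 (SD over spots). By the Feature Extraction ratio it was at 1.68 and -1.55, past the 2-fold limit on both.

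Apod, a lipocalin that binds arachidonic acid and is made by glia and by fibroblast-like cells, was less even between the arrays than the other carriers. Its intensity was 662 without bFGF and 455 with bFGF on the withdrawal array. It was 321 in the channel labelled Bcl-2 and 695 in the channel labelled vector on the other. The log2 ratios were 0.54 and -1.12, so that Apod was called on the array labelled Bcl-2 alone. The difference between red labelled Bcl-2 and green on the withdrawal array was -0.51 for Apod. For the other 8 genes it lay between -0.01 and 0.34, and the SD was 0.15 over the 26861 spots well above background in every channel. Of the fibroblast and meningeal markers 10 of 10 were above 0 on the withdrawal array, with 2 called higher (2.42% of all genes) and a median of 0.45 (-0.45 with the sign turned). On the array labelled Bcl-2 all 9 measured were below 0, with 5 called lower (2.00% of all genes) and a median of -1.08 (1.08 with the sign turned). The 2 called on the withdrawal array were the smooth muscle genes Tagln at 3.23 and Acta2 at 2.19. The collagen genes Col1a1, Col1a2 and Col3a1 were not called there, and Col1a2 was at 0.74 and -1.71. Their summed intensity was 3960 in the channel labelled Bcl-2 and 13100 in the channel labelled vector, and 13800 without and 5920 with bFGF. Tagln and Col1a2 were the brightest without bFGF, at 5020 and 4560 of the 13800. None of these markers was below background on both arrays, and their part in the Apod values was not tested.

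**Figure D3:**
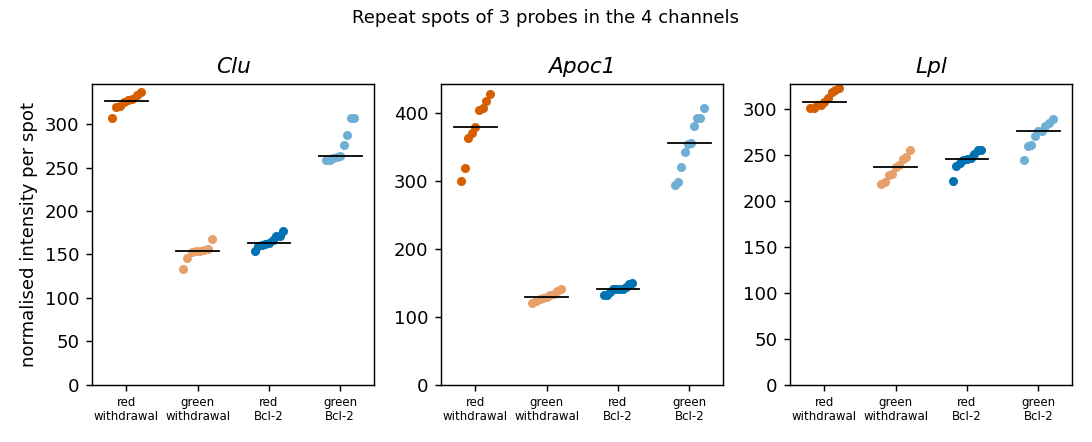
Normalised intensity of each repeat spot (vertical axis, linear from 0) of the Clu, Apoc1 and Lpl probes in the 4 channels, with black lines at the medians. The Clu and Apoc1 spots form a high pair (red withdrawal, green Bcl-2) and a low pair of channels, while Lpl spots lie between 218 and 323 throughout.

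Abca1 moves cholesterol and phospholipid onto lipid-poor apolipoproteins, Apoe among them. Its intensity was 457 without bFGF and 136 with bFGF on the withdrawal array. It was 162 in the channel labelled Bcl-2 and 393 in the channel labelled vector on the other. Abca1 was 3.37-fold higher without bFGF (log2 1.75), and 0.47% of measured genes had a higher ratio. It was 2.42-fold lower in the channel labelled Bcl-2 (log2 -1.28), with 1.02% of genes lower. The Feature Extraction ratio was larger, at 2.54 and -2.34, with deposited errors of 0.32 and 0.31 on the log2 scale. Abca1 is read by 1 spot per array, and the net signal of its low channel was 94 and 100.

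Abcg1, which loads cholesterol onto particles that already hold lipid, had intensities of 291 without bFGF and 156 with bFGF. On the other array it had 154 in the channel labelled Bcl-2 and 267 in the channel labelled vector. Its log2 ratios of 0.90 and -0.79 fell short of the 2-fold limit, and the Feature Extraction ratios of 1.51 and -1.94 passed it. On the withdrawal array it also passed with a smaller offset of 10, at 1.17. Abcg4, the nearest relative of Abcg1, lay at 0.74 and -0.60.

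Promoter windows are shown for Apoe, Apoc1 and Abca1, which were at least 2-fold on both arrays. Each holds 250 bases before and 50 after a RefSeq start on assembly GRCr8, 5′ to 3′ on the gene's strand. The Apoe window is chr1:88484650-88484949 (minus strand), 1 of several starts in the table, the Apoc1 window chr1:88478256-88478555 (minus strand), likewise 1 of several, and the Abca1 window chr5:72596424-72596723 (minus strand). Capitals mark matches on either strand to the motifs named after the sequences.
Apoe: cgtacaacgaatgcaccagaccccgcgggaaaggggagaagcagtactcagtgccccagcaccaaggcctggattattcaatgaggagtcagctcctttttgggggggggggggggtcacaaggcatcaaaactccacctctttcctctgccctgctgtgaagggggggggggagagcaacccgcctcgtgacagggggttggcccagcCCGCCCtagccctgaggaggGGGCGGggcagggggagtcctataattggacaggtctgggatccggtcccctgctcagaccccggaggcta
Apoc1: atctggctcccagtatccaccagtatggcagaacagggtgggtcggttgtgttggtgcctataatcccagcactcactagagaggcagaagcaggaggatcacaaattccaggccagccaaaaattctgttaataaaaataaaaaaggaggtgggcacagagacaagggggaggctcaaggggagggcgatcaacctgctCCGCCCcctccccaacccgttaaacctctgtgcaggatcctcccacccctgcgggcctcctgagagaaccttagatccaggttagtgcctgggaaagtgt
Abca1: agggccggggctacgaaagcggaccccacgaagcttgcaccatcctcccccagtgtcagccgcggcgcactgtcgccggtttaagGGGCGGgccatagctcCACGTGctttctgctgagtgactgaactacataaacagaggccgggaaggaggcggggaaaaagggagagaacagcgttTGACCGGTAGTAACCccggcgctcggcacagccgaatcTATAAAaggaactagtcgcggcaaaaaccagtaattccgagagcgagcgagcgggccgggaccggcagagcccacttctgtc

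The motifs searched were the GC box GGGCGG, the TATA box TATAAA, the E-box CACGTG, the AP-1 site TGANTCA, the sterol response element TCACNCCAC, and 2 forms of the DR4 repeat that LXR binds: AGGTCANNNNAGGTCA and the looser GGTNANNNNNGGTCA. The looser form was added after the Abca1 sequence was seen. Apoe held GC boxes at -41 to -36 and at -21 to -16, counted from the start with no position 0, and Apoc1 held a GC box at -50 to -45. A GC box stood in 33.1% of the 33469 promoter windows. Abca1 held a GC box at -165 to -160, an E-box at -149 to -144 (in 6.42% of windows), a TATA box at -32 to -27 (14.2%), and the looser DR4 form at -70 to -56 on the minus strand (0.23%). The LXR element of human and mouse ABCA1 is known to lie in such a stretch of the proximal promoter. The AP-1 site (in 7.33% of windows), the sterol response element (1.12%) and the strict DR4 form (0.00598%) had no match in these 3 windows, which says only that those letters are not there.

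Lpl, the lipase gene, changed little. Its intensity was 311 ± 8.39 without bFGF and 236 ± 12.8 with bFGF on the withdrawal array (SD, n = 9 spots of 1 array). It was 245 ± 10.4 in the channel labelled Bcl-2 and 272 ± 14.3 in the channel labelled vector on the other (SD, n = 9 spots of 1 array). The spots did not overlap on the withdrawal array, at 301 to 323 against 218 to 256. They overlapped on the other, at 222 to 255 against 245 to 290. The log2 ratios were 0.40 ± 0.08 and -0.15 ± 0.04 (SD over spots), under the 2-fold limit. The Feature Extraction ratio was 0.42 and -0.17, with deposited errors (median over spots) of 0.21 and 0.22 on the log2 scale. These errors were larger than the SD over spots of the loess ratio. By that measure Lpl lay outside its error on the withdrawal array and within it on the array labelled Bcl-2.

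The receptors were the least changed of the 9 genes beside Lpl. Lrp1, a large endocytic receptor for Apoe and many other ligands, had intensities of 1000 without and 931 with bFGF, and of 923 in the channel labelled Bcl-2 and 1100 in the channel labelled vector. Its log2 ratios were 0.11 and -0.25, and 39.9% of genes lay above the first. Vldlr, a receptor for Apoe-rich particles and for reelin, had intensities of 232 without and 177 with bFGF, and of 199 and 226 in the channels labelled Bcl-2 and vector. Its log2 ratios were 0.39 and -0.18. Over 1163 and 1125 probes printed several times, the median SD between spots was 0.04 on both arrays. The Feature Extraction ratio of Lrp1 was 0.07 and -0.18, with deposited errors of 0.20 and 0.21 on the log2 scale. That of Vldlr was 0.37 and -0.49, with errors of 0.22 and 0.23, so that Lrp1 lay within its error and Vldlr outside it on both arrays.

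Set channel against channel, Apoe, Clu, Apoc1, Abca1 and Abcg1 followed the pairing seen over all spots. Vldlr did so weakly, with green minus green at 0.35. For Lrp1 and Lpl the pairing was not clear. Their green labelled Bcl-2 minus red on the withdrawal array was 0.13 and -0.19, against 0.24 and 0.20 for green minus green. Apod differed by -0.51 between red labelled Bcl-2 and green on the withdrawal array. Over the 9 genes, green on the array labelled Bcl-2 minus red on the withdrawal array ranged from -0.26 to 0.13 on the log2 scale. Red minus red, by label Bcl-2 cells with bFGF minus vector cells lacking it, ranged from -0.12 for Lrp1 to -3.20 for Apoe. The green channels, labelled alike as vector with bFGF, differed by 0.20 for Lpl to 3.53 for Apoe, array labelled Bcl-2 minus withdrawal array. A difference of that size between channels with the same label bears on every value above. In the authors' deposited table the first column equals the ratio of the withdrawal array for 100% of 28395 probes (within 0.05 on the log2 scale after a constant) and the second the 2 arrays' ratios multiplied, also for 100%. The medians of its columns are 0.932 and 0.944. For Apoe the authors' deposited table gives ratios of 13.1 and 1.28, for Abca1 6.10 and 1.15, and for Apod 1.44 and 0.515. The scale of that table is linear, and its centring and intended direction are unknown.

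**Figure D4:**
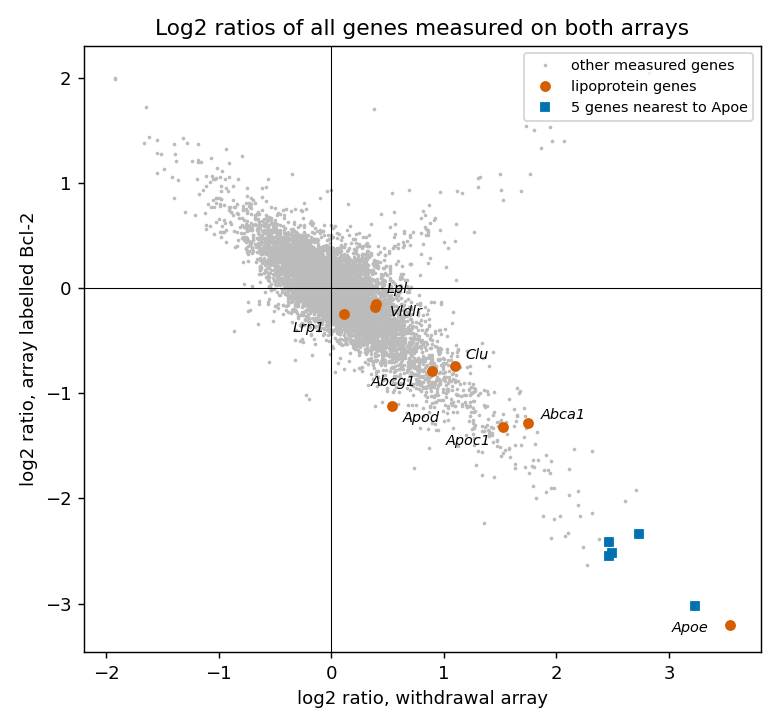
Log2 ratio on the withdrawal array (horizontal axis) against that on the array labelled Bcl-2 (vertical axis) for all genes measured on both, with the 9 lipoprotein genes in orange and the 5 genes nearest to Apoe in blue. The genes run from upper left to lower right, with Apoe at the lower right end at 3.54 and -3.20, and Apod lies below the main cloud.

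The genes with the ratios most like those of Apoe were named by their Euclidean distance from it in the pair of log2 ratios, over 9424 other genes well above background in all channels. Nearest was Tagln, an actin-binding gene of smooth muscle, at a distance of 0.35 with ratios of 3.23 and -3.02. Next came the metallothionein gene Mt1 at a distance of 1.18, Cyba, a subunit of the NADPH oxidase, at 1.25, the metallothionein gene Mt2A at 1.25 and the cilium gene Pierce1 at 1.32. None of these is a lipoprotein gene.

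The other genes of the pathway were taken from 7 lists of 113 genes without the members. On the withdrawal array 83 were measured, with 0 called higher and 11 called lower (2.42% and 0.470% of all genes). On the array labelled Bcl-2 78 were measured, with 11 called higher and 0 called lower (0.557% and 2.00% of all genes). The medians were -0.01 and 0.04. With the sign turned, the withdrawal array has 11 called higher and 0 lower, and the other 0 higher and 11 lower. Sterol synthesis supplied 9 of the 11 on each array. Outside it, the sterol transfer gene Stard4 at -1.02 was lower without bFGF. Stard4 at 1.05 and the HDL receptor gene Scarb1 at 1.06 were higher in the channel labelled Bcl-2. Stard4 and Scarb1 are named after their values were seen.

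Sterol synthesis ran opposite to the members. The sterol synthesis list had a median of -1.17 on the withdrawal array and 1.13 on the array labelled Bcl-2, with Idi1, an isoprenoid isomerase, at -1.66 and 1.38 and Insig1, which retains the SREBP complex, at -1.40 and 1.37. With the sign turned the medians are 1.17 and -1.13.

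Of the other carriers 10 of 17 were measured on each array and 0 were called, with ranges of 0.06 to 0.42 and -0.45 to 0.17. In either direction 2.89% and 2.56% of all genes were called, shares that apply to the lists below too. Several of these carriers lay near background, where the offset shrinks loess ratios. Pltp was at 0.31 and -0.03, and at 1.40 and -0.58 by Feature Extraction. Lcat, which esterifies cholesterol on particles, was at 0.23 and -0.27. Of the other transporters 15 and 14 of 22 were measured, with medians of 0.10 and -0.13. The lysosomal cholesterol exporters Npc1 and Npc2 were at 0.33 and 0.24 on the withdrawal array and -0.31 and -0.19 on the other. Of the other receptors 18 and 15 of 26 were measured, with medians of 0.04 and -0.09. With the sign turned the medians are -0.18 and 0.11 for the carriers, -0.10 and 0.13 for the transporters and -0.04 and 0.09 for the receptors. Lrp2, the endocytic receptor megalin, was at 0.97 and -0.80, and passed the 2-fold limit by Feature Extraction at 1.10 and -1.15.

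Of the LXR group 10 and 9 of 12 were measured and 0 were called, with medians of 0.12 and -0.07. Nr1h3, encoding LXR alpha, was at 0.71 and -0.60 (Feature Extraction 1.48 and -1.22), and Nr1h2, encoding LXR beta, at 0.21 and -0.14. Mylip, an LXR-driven ubiquitin ligase, was at 0.00 and -0.12. Of the lipase list 7 of 12 were measured, and 0 were called. The reelin list, partners of Vldlr and Lrp8, had 9 of 10 measured and 0 called, with medians of -0.05 and 0.04. Reln was at -0.06 and 0.36 (Feature Extraction -0.28 and 1.28, the second past the 2-fold limit), with intensities of 119 to 153. Its adaptor gene Dab1 was at -0.28 and 0.60 (Feature Extraction -0.34 and 0.69). Pltp, Lcat, Npc1, Npc2, Lrp2, Nr1h3, Nr1h2, Mylip, Reln and Dab1 were picked after their values were seen.

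**Figure D5:**
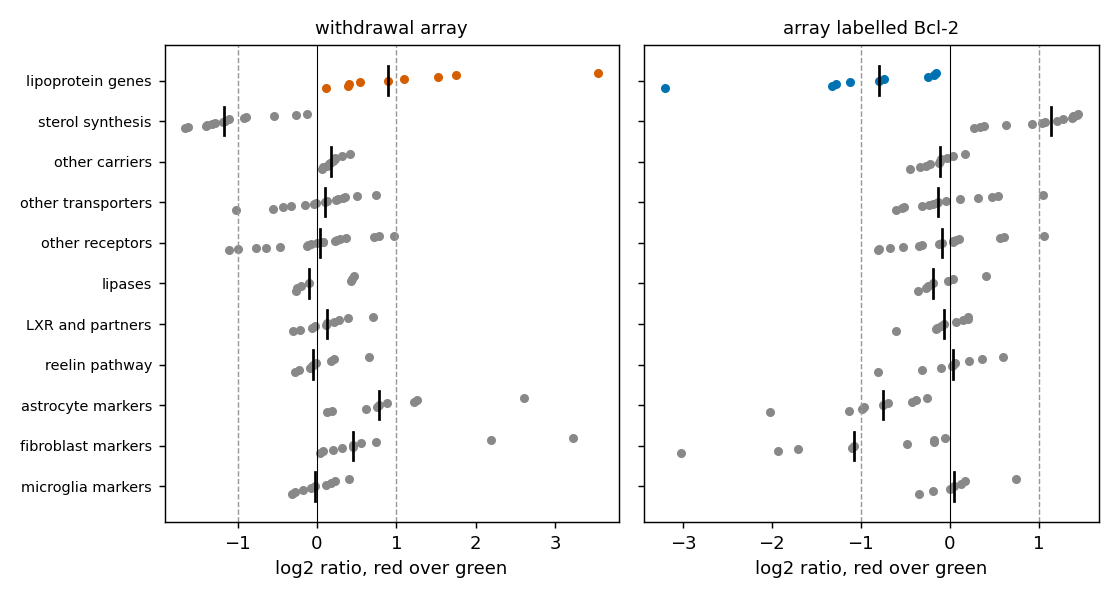
Log2 ratios (horizontal axes) of the 9 lipoprotein genes (coloured) and of the genes of 10 lists (grey) on the withdrawal array (left) and the array labelled Bcl-2 (right), 1 point per measured gene, black lines at the medians and dashed lines at the 2-fold limit. The lipoprotein genes lie on the side of the astrocyte and fibroblast markers and opposite to sterol synthesis on both arrays.

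Markers of cells that make Apoe in brain were read beside it. Of 12 astrocyte markers 9 were measured on both arrays, all above 0 on the withdrawal array and all below 0 on the other, with medians of 0.78 and -0.75 (-0.78 and 0.75 with the sign turned). Their summed intensity was 31500 without and 18500 with bFGF, and 18800 in the channel labelled Bcl-2 and 31700 in the channel labelled vector. The brightest, Slc1a3, alone gave 18400, 10900, 11100 and 18700 of these sums. Aldh1l1, a folate enzyme and astrocyte marker, was at 2.61 and -2.02. Gfap, the defining astrocyte filament, and Gjb6 stayed below that limit of detection on both arrays. Of 12 microglia and macrophage markers 7 were measured on both, and 0 were called. Their summed intensity was 2230 without and 2120 with bFGF, and 2330 and 2120 in the channels labelled Bcl-2 and vector. C1qa, Itgam and Ptprc were not well above background on either array, and neither was Trem2, a microglial receptor for Apoe. The fibroblast list and the choroid plexus and ependymal list had medians of the same signs as the astrocyte list, 0.45 and -1.08 for the former and 0.90 and -1.04 for the latter. The latter rests on 5 of 8 markers, among them the cilium gene Foxj1. Its choroid plexus markers Kl, Folr1 and Clic6 were not well above background on either array. The part of astrocyte-lineage or other cells in the Apoe, Clu and Abca1 values was not tested.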

How the data were processed

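Members and gene lists were chosen with earlier results of these data known. Per the file headers, the deposited scanner files hold median spot and background intensity per channel, not normalized, from Feature Extraction 11.5.1.1 with protocol GE2_1105_Oct12 and build rn4. Version 8.5.1.1 stands in the submitters' processing notes. The same deposited files give a log10 ratio (red over green) and its error, used as the Feature Extraction ratio, and flags of 0 or 1 (outlier, saturated, well above background). They also give a deposited p-value of that ratio, which covers no replicate cultures and was not used here. The authors also deposited a table of linear ratios in 2 columns.

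From these, limma 3.58.1 (R 4.3.3) removed background (normexp, offset 50) and fitted loess within arrays, giving control spots a weight of 0. Channel intensities were scaled by Aquantile. Normalization was tested on simulated data. Counts and figures were made in Python 3.11.15 with pandas 2.3.3 and matplotlib 3.10.9. Of 42877 gene spots, 534 and 576 outliers were dropped; 0 were saturated. Repeat spots were averaged. Probes had to be well above background in a share of 0.5 of their spots in 1 channel or both (20328 and 19026 probes passed). Accessions were matched to RefSeq GRCr8, used for gene names and order, which named 60.4% of 30367 probes, and each gene takes the median of its probes. RefSeq promoter windows of GRCr8 were found for 6 of the 10 genes. The text names all members, up to 8 called pathway genes per array, and the 5 genes nearest to Apoe; others are named as chosen after their values were seen. With 1 array per comparison no test was run, and the number of arrays limits the precision. Repeat spots measure technical scatter alone. Median signals replaced mean signals, which were not used here. A listed pathway gene is not reported here. In all, 9 alternatives were tried per array.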

Additional observations from a re-analysis of the deposited data

Results flagged for a closer look

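Of the 9 measured genes, 3 passed 2-fold on the withdrawal array upward and on the array labelled Bcl-2 downward, although each array set a treated culture against vector cells with bFGF by label. Of 10162 genes measured on both arrays, 1.58% did so. As labelled, the log2 ratio of the array labelled Bcl-2 minus that of the withdrawal array was -6.73 for Apoe, -3.03 for Abca1 and -2.85 for Apoc1. These sizes hold only if both arrays, or neither, follow their labels. Were the withdrawal ratios reversed and the others kept, they would be 0.34 for Apoe, 0.47 for Abca1 and 0.19 for Apoc1. Reversing the array labelled Bcl-2 instead gives the same sizes below 0. With 1 array per comparison these differences were not tested. The green channels, labelled as the same RNA, differed by 3.53 for Apoe, 1.53 for Abca1 and 1.45 for Apoc1, array labelled Bcl-2 minus withdrawal array.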

How the results depend on the processing

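Of 77 recomputed summary values and counts, 60 stayed within 1.5 times of the reported one, 16 moved further and 1 reversed. Of 144 values of single genes other than Apoe, 112 stayed, 31 moved and 1 called value, Apod, changed sign. Apoe stayed beyond 8-fold, and Apoe, Apoc1 and Abca1 stayed called, on both arrays under all alternatives except that without normalization. The Feature Extraction ratio gave medians of the 9 genes of 1.51 and -1.55 (withdrawal array, then array labelled Bcl-2) and 21 called pathway genes on each. The authors' value table, with its second column divided by the first to undo the product and so recover the ratio of the array labelled Bcl-2, and with both centred on the median probe, gave medians of 1.69 and -1.70 and 20 and 21 called pathway genes. Both called Clu and Abcg1 too on the array labelled Bcl-2. On the withdrawal array Abcg1, reported at 0.90, was called by both of these, with an offset of 10 at 1.17, under median centring and without normalization at 1.54. Median centring without loess called 7 pathway genes on the withdrawal array. Without normalization the median of all genes moved to 0.71 and 1.22, which carries the other values with it: Apoe was at 4.34 and -1.92, the medians of the 9 genes at 1.54 and 0.40, Apod on the array labelled Bcl-2 at 0.05, 8 of the 9 genes were called on the withdrawal array, and 19 and 59 pathway genes were called. On the array labelled Bcl-2 this setting left 3 of the 9 genes on their reported side of 0. Clu turned to 0.45, Abcg1 to 0.40, Lrp1 to 0.95, Lpl to 1.02 and Vldlr to 1.01, the last pair called higher. The median of all genes was 0.17 under median centring and 0.16 and -0.11 in the value table. The difference of the red channels for Apoe, -3.20, became -6.73 when taken as the difference of the array ratios as labelled. The calls over all genes ranged from 1.98% to 23.8% on the withdrawal array and from 1.64% to 77.1% on the other. The Feature Extraction ratio gave 887 genes higher and 237 lower, against 263 and 51, and 358 and 690 on the array labelled Bcl-2, against 57 and 205. On the withdrawal array median centring gave 473 and 34, an offset of 10 gave 445 and 91, and the authors' values 1150 and 140. On the other the authors' values gave 270 and 837. Without normalization the counts were 2579 and 2, and 7880 and 12. The causes of these moves were not tested beyond the shift named. No paired analysis was possible because each group has 1 array.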

Other observations

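Marker lists of other cells that could be in these cultures were read the same way. Progenitor markers, 10 and 9 of 10 measured, had medians of 0.26 and -0.27 (withdrawal array, then array labelled Bcl-2). On the withdrawal array 7 were above 0 and 3 below, and on the other 2 above and 7 below. Fabp7, a lipid-binding protein of radial glia, was the highest on the withdrawal array. It was at least 2-fold higher without bFGF at 1.26 and at -0.91 on the other. Vim lay the other way, at -0.49 and 0.56. Neuronal markers, 8 of 11 measured, had medians of 0.32 and -0.05. On the withdrawal array 7 were above 0 and 1 below, and on the other 4 were above and 4 below. The highest on the withdrawal array, the neuronal tubulin gene Tubb3, was called there at 1.03, while Elavl4 was at -0.26 and 0.25. Oligodendrocyte markers, 9 of 10 measured, had medians of 0.16 and -0.23 with 0 called. Choroid plexus and ependymal markers, 5 of 8 measured, had medians of 0.90 and -1.04, with Foxj1, a regulator of motile cilia, at 1.95 and -1.64 and the thyroxine carrier gene Ttr at 0.90 and -1.28. Aqp1 was at -0.02 and -0.07. Their summed intensity was 1880 without and 832 with bFGF, and 854 and 1810 in the channels labelled Bcl-2 and vector. Endothelial markers were measured for 3 and 2 of 8 genes, and 0 were called.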
